A study of Mus musculus with 12 samples.

Results

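The genes described here are 10 genes that control hepcidin and handle iron in the liver: Hamp, Hamp2, Tfrc, Tfr2, Trf, Slc40a1, Slc39a14, Bmp6, Smad7 and Id1. They were taken by name from the array, out of 31870 gene names, and each is represented by its brightest probe. All 10 were on the array, well above background on all 12 arrays, and among the 19531 genes tested. Liver RNA came from 12 mice, 1 mouse and 1 one-colour array each, in 4 groups of 3: FSAP-deficient mice (FSAP-/-) after bile duct ligation (BDL), FSAP-deficient mice after a sham operation, wild-type mice (WT) after BDL and WT mice after sham. FSAP, factor VII-activating protease, is a circulating serine protease made mainly by the liver and encoded by Habp2. BDL blocks bile flow and leads to cholestasis and biliary fibrosis, and in the sham operation the duct was not tied. All mice were 20 to 30 weeks old and littermates from heterozygous crosses, from a line backcrossed to BalbC as far as F3, and livers were taken 2 weeks after surgery. The labels give neither the deleted part of Habp2 nor the sex of the mice.

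Hepcidin is a peptide hormone of hepatocytes that binds the iron exporter ferroportin, encoded by Slc40a1, and causes its degradation, so that high hepcidin keeps iron inside macrophages, enterocytes and hepatocytes. Its gene is switched on by iron through BMP6, which sinusoidal endothelial cells release and which signals through SMAD proteins in hepatocytes, and by inflammation through interleukin-6 and STAT3. The mouse carries a pair of hepcidin genes: Hamp encodes the hormone that controls iron, while Hamp2, its neighbour on the same chromosome, did not change iron handling when overexpressed in mice and is known for higher levels in female than in male mouse liver.

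The hepcidin probes are printed because the results turn on telling these close copies apart. Capitals mark the bases that differ between the probes, and both lie on the minus strand of the mm9 build.
Hamp probe, chr7:31727490-31727549: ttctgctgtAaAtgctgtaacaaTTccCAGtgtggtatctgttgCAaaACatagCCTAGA
Hamp2 probe, chr7:31707520-31707579: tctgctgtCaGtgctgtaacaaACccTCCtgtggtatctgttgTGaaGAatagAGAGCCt
Over 59 aligned bases the probes differed at 17, an identity of 71.2%, and their longest shared run was 14 bases.

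The 250 bases upstream of each start are shown because they hold the stretches through which hepcidin is known to answer BMP and interleukin-6. They are from RefSeq on GRCm38.p6, minus strand, and capitals mark GGCGCC, the letters of the BMP-responsive element of the human hepcidin promoter, with the aligned stretch in Hamp2, and TTCTTGGAA, the letters of its STAT site.
Hamp, chr7:30944030-30944279: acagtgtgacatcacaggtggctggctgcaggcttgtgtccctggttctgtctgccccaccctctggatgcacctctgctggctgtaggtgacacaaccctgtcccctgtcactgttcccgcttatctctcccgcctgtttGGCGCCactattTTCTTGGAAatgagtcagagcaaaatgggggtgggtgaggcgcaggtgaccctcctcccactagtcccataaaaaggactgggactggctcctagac
Hamp2, chr7:30924182-30924431: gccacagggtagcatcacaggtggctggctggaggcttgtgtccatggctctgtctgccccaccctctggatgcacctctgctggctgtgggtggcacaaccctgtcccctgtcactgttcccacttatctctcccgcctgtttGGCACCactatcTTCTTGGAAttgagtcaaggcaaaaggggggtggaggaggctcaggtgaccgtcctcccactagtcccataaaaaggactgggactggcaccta
The upstream stretches were 91.9% identical, with 227 identical bases of 247 aligned and 20 substitutions. Hamp held GGCGCC with its first base at -109 from the start, and in Hamp2 the aligned stretch differed by the substitution G145A, counted from the first printed base of Hamp. TTCTTGGAA was present in both, its first base at -97 from the start in Hamp and at -94 in Hamp2. Searched on both strands, GGCGCC was found in the upstream 250 bases of 9.59% of 32851 RefSeq promoters and TTCTTGGAA in 0.365%. Among the members with a promoter in the RefSeq table, 1 of 2 Tfrc promoters held GGCGCC, and the 3 Tfr2 promoters and the Bmp6 promoter held neither motif. A match or its absence describes these letters only.

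Levels below are log2 values of the processed signal relative to each array's 75th percentile, so a level of 0 is the 75th percentile, and levels of different genes are not compared, since each probe has its own response. Changes are log2 differences with the standard error (SE) of a limma model over all 12 arrays, n = 3 mice in every group, and "rose" and "fell" stand for a Benjamini-Hochberg adjusted p under 0.05 over all tested genes. Habp2, the targeted gene, lay between -7.18 and -6.95 in FSAP-deficient BDL livers, between -6.74 and -3.45 in FSAP-deficient sham livers, between 4.97 and 5.15 in WT BDL livers and between 5.37 and 5.51 in WT sham livers. FSAP-deficient sham liver 1 was the highest of the 6 FSAP-deficient arrays for Habp2, and it was the only one well above background. That array also lay on a slide of its own, and its file is rounded to fewer digits. Signal of Ddx3y and Eif2s3y, which lie on the Y chromosome, was found on 3 of the 12 arrays, FSAP-deficient sham liver 1 and FSAP-deficient BDL livers 1 and 2, and on none of the 6 WT arrays. Xist, which lies on the X chromosome, was not well above background on these 3 arrays, at -7.52, -7.14 and -6.97. On all other arrays it was, between -1.53 and 0.08. The WT groups thus held only arrays with Xist and without Y-linked signal, while both FSAP-deficient groups held both kinds. The arrays came from 4 slides: slide 3 held all FSAP-deficient BDL livers with FSAP-deficient sham liver 3, slide 1 held WT BDL liver 1 with all WT sham livers, and no slide held both genotypes after the same surgery. A value within a slide therefore sets 3 arrays against 1, FSAP-deficient sham liver 3 on slide 3 or WT BDL liver 1 on slide 1, and its test assumes that this lone array varies like the other groups, so a call lost or kept there rests on 1 array. Leaving out the 3 arrays with Y-linked signal sets FSAP-deficient BDL liver 3 alone against FSAP-deficient sham livers 2 and 3. The WT groups stay whole. Calls for FSAP-deficient livers without these arrays therefore also rest on 1 array. Between 54.5% and 62.3% of the spots on an array were well above background.

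After BDL, Hamp2 fell in both genotypes, Tfr2 fell and Id1 rose in FSAP-deficient livers, and the other 7 members did not pass the test in either genotype. In FSAP-deficient livers 3 of 10 members changed, against 39.0% of all tested genes. In WT livers 1 of 10 changed, against 32.8% of all tested genes. Hamp itself, the iron hormone, did not pass the test in any comparison. The members' median log2 change after BDL was -0.19 in FSAP-deficient livers, beside -0.16 over all tested genes, and -0.01 in WT livers, beside -0.03 over all tested genes.

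**Figure D1:**
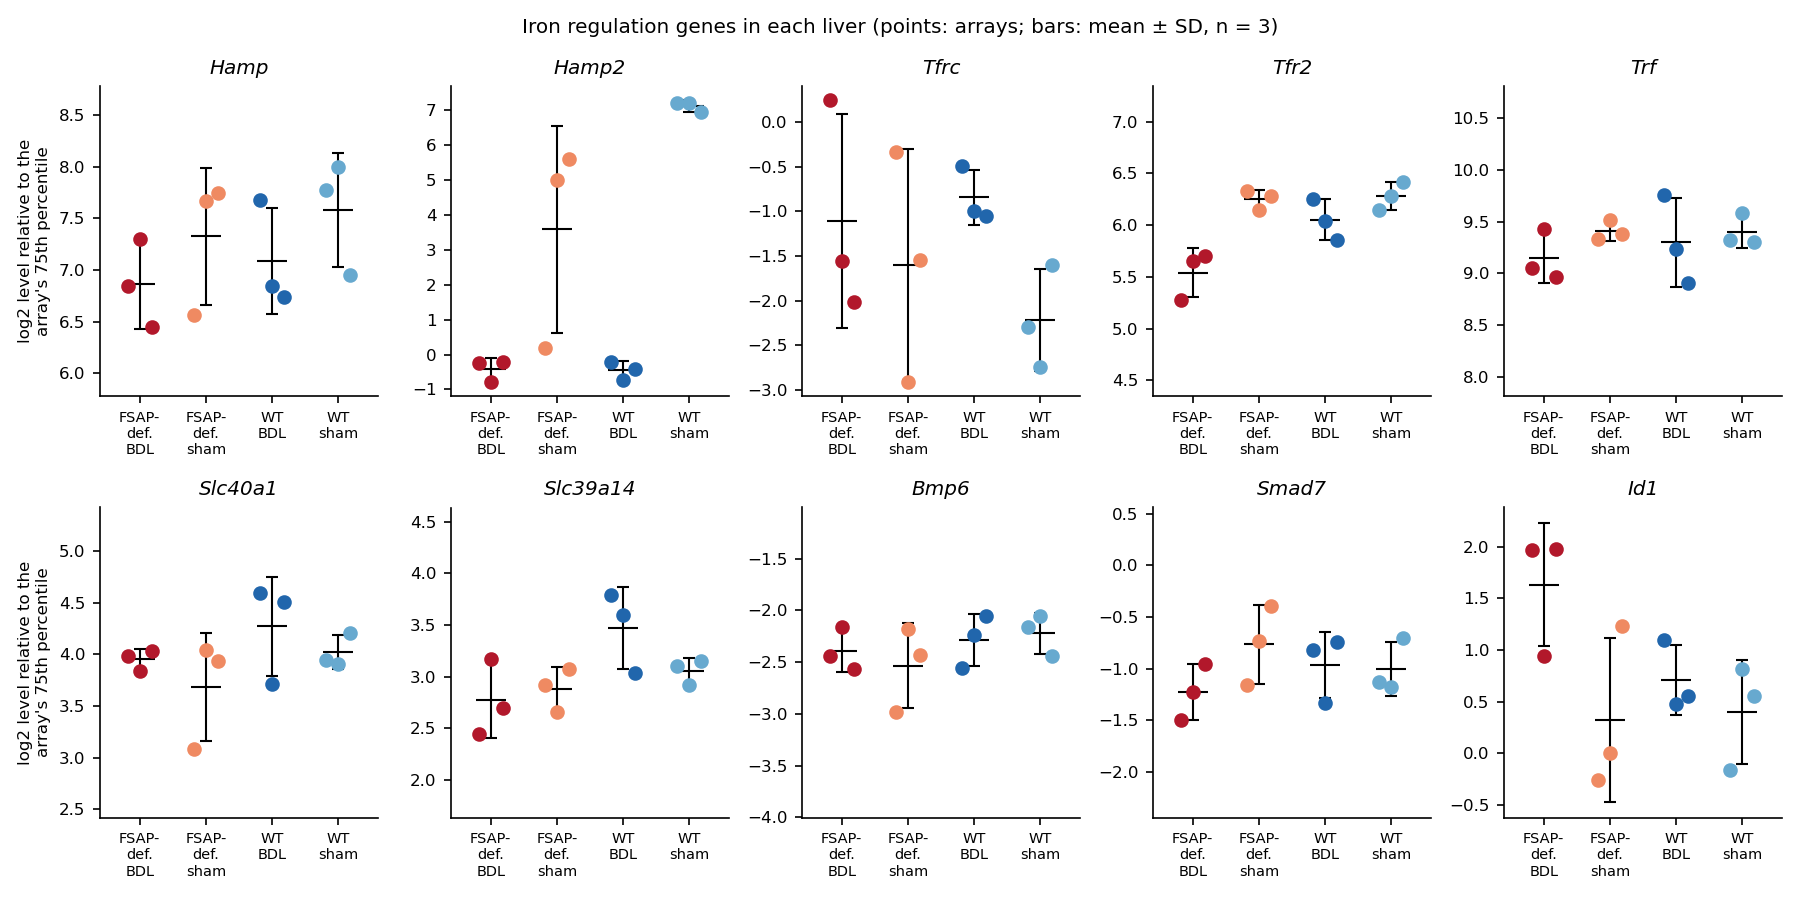
Log2 level of the 10 genes in each liver, relative to the array's 75th percentile, with 1 panel per gene and a vertical scale of its own in each panel. Points are arrays and bars show the mean ± SD of 3 livers. The Hamp2 panel has the widest spread, with all 6 BDL livers and FSAP-deficient sham liver 1 at or below 0.18 and the WT sham livers between 6.94 and 7.22.

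Hamp2 was the member with the largest change. Its level was -0.25, -0.79 and -0.21 in the FSAP-deficient BDL livers, against 0.18, 4.99 and 5.59 in the FSAP-deficient sham livers. It was -0.20, -0.74 and -0.41 in the WT BDL livers, against 7.22, 7.22 and 6.94 in the WT sham livers. The BDL livers of both genotypes lay together at the bottom, the WT sham livers lay together at the top, and the FSAP-deficient sham livers were split, liver 1 near the BDL livers and livers 2 and 3 between. BDL and sham groups did not overlap within either genotype. Hamp2 fell by 4.01 after BDL in FSAP-deficient livers (SE 1.06, 95% interval -6.36 to -1.66, limma adjusted p = 0.0127), a 16.1-fold lower level. It fell by 7.58 after BDL in WT livers (SE 1.06, interval -9.93 to -5.23, adjusted p = 0.000437), a 191-fold lower level. The model shares its spread over all 4 groups, but the SD of Hamp2 was 2.96 in FSAP-deficient sham livers. In the other groups the SD lay between 0.16 and 0.32. With only the WT groups in the model, the SE of the WT change was 0.18. Over all tested genes, 22.8% fell in FSAP-deficient livers and 17.7% fell in WT livers.

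The size of the Hamp2 change in FSAP-deficient livers depended on sham liver 1, which carried Y-linked signal. Without the 3 arrays with Y-linked signal, the change after BDL was -5.51 in FSAP-deficient livers, for BDL liver 3 alone. With only FSAP-deficient sham liver 1 left out it was -5.71. Within slide 3, against sham liver 3 alone, it was -6.01 in FSAP-deficient livers, and within slide 1, for BDL liver 1 alone, it was -7.33 in WT livers. With only the FSAP-deficient groups in the model, the change of -4.01 no longer passed the threshold, while the WT change passed in all 24 alternatives tried. Y-linked signal was present in 2 of 3 FSAP-deficient BDL livers and in 1 of 3 FSAP-deficient sham livers, and the part of sex in the Hamp2 levels was not tested.

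**Figure D2:**
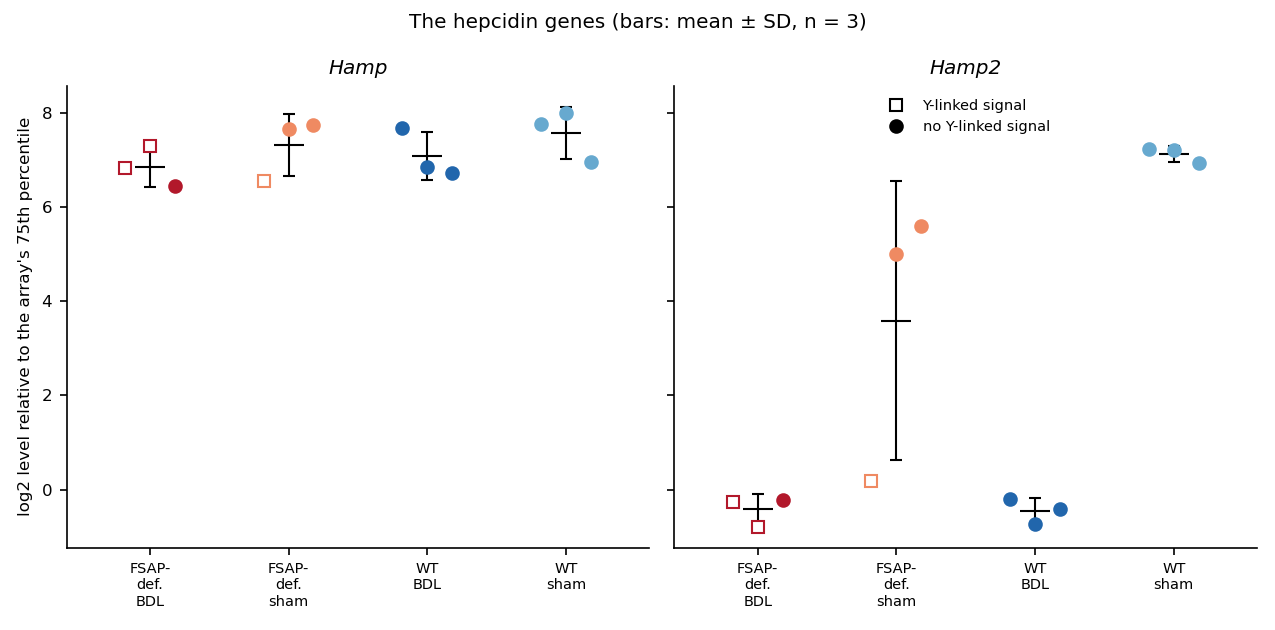
Log2 level of Hamp and Hamp2 in each liver, relative to the array's 75th percentile, on a shared vertical scale. Open squares are the 3 arrays with Y-linked signal, filled circles the other 9 arrays, and bars the mean ± SD of 3 livers. Hamp stays between 6.44 and 8.0 in all livers, while Hamp2 is low in every BDL liver and in the FSAP-deficient sham liver drawn as a square.

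Hamp, which encodes the hormone that acts on ferroportin, was measured at 6.84, 7.30 and 6.44 in the FSAP-deficient BDL livers, against 6.56, 7.67 and 7.75 in the FSAP-deficient sham livers. In WT it stood at 7.67, 6.84 and 6.74 in the BDL livers, against 7.77, 8.0 and 6.95 in the sham livers. BDL and sham livers overlapped in both genotypes. The change after BDL was -0.46 in FSAP-deficient livers (interval -1.35 to 0.42, adjusted p = 0.39) and -0.49 in WT livers (interval -1.37 to 0.39, adjusted p = 0.378). Hamp did not cross the threshold under any alternative, but its size moved. In FSAP-deficient livers the change was -1.26 for BDL liver 3 alone, without the arrays with Y-linked signal. It was -0.85 without sham liver 1, -0.88 within slide 3 and 0.07 with quantile normalization. In WT livers it was 0.10 within slide 1. Among all genes searched for a like pattern over the 12 arrays, the nearest to Hamp were Gm10318, Zfp397 and Ssbp2, with root mean square differences of 0.18, 0.21 and 0.22 log2 units after centring each gene, beside a spread of Hamp about its own mean of 0.52.

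The genes nearest to Hamp2 among 15863 searched were Sult3a2, which encodes a cytosolic sulfotransferase, Acot3, a peroxisomal acyl-CoA thioesterase, and Hao2, a peroxisomal hydroxy acid oxidase. Their root mean square differences from Hamp2 were 0.78, 1.03 and 1.20 log2 units over the 12 arrays, against a spread of Hamp2 about its mean of 3.38. Sult3a2 averaged -6.93 in FSAP-deficient BDL livers, -2.80 in FSAP-deficient sham livers, -6.09 in WT BDL livers and 1.09 in WT sham livers. Acot3 stood at -4.23 in FSAP-deficient sham liver 1, against 3.42 and 3.09 in the other FSAP-deficient sham livers, and between 4.36 and 4.60 in the WT sham livers. Hao2 stood at -7.12 in FSAP-deficient sham liver 1, against 1.39 and 2.33 in the other FSAP-deficient sham livers. All 3 genes were low in the same sham liver as Hamp2. Sult3a2 and Hao2 were well above background on 6 of the 12 arrays only, so their lowest levels have no order. These genes were picked for their likeness, which is a description of these arrays.

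**Figure D3:**
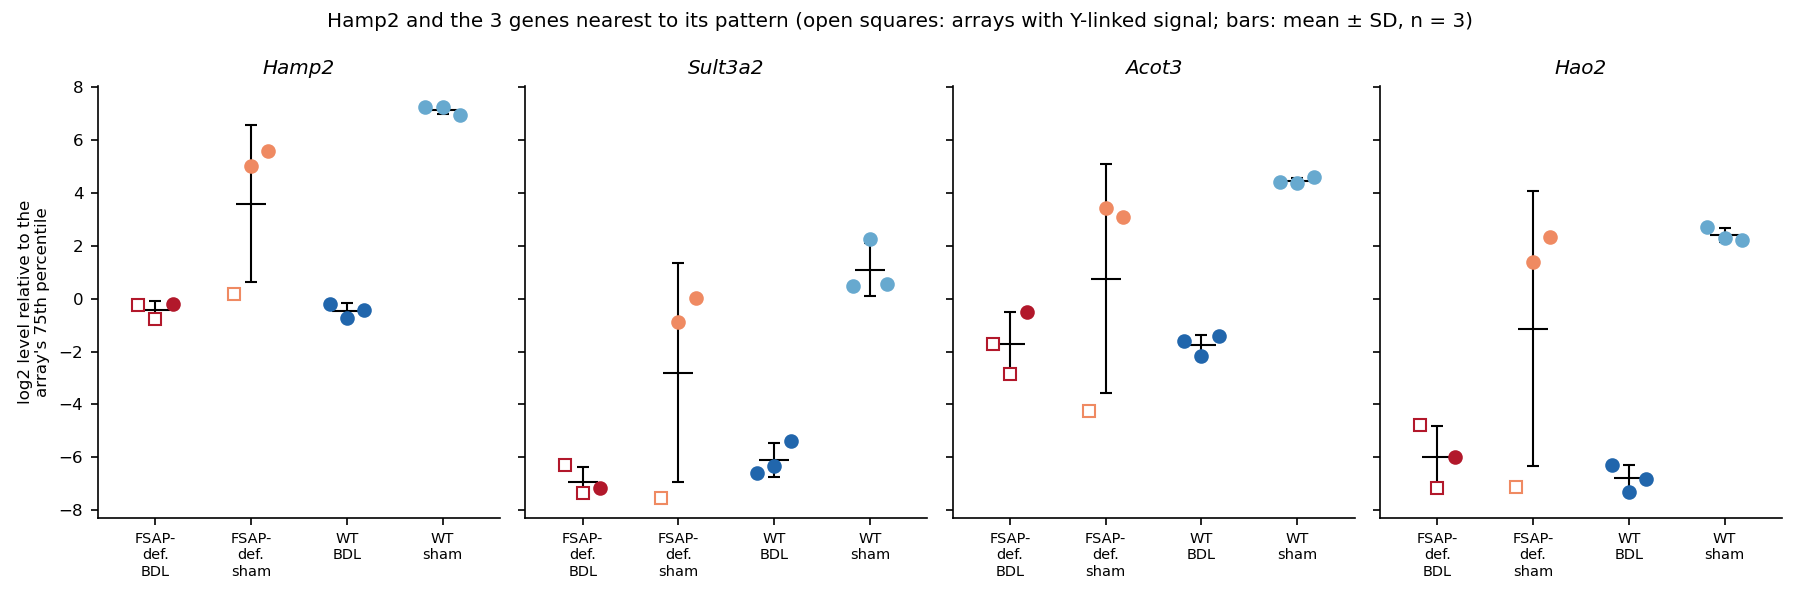
Log2 level of Hamp2 and of the 3 genes nearest to its pattern, relative to the array's 75th percentile, in each liver. Open squares are arrays with Y-linked signal, filled circles other arrays, and bars the mean ± SD of 3 livers. In all 4 panels FSAP-deficient sham liver 1 lies nearer to the BDL livers than to the other sham livers, and the other 5 sham livers lie above all BDL livers.

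Transferrin carries iron in plasma, transferrin receptor 1 takes it into cells, and transferrin receptor 2 on hepatocytes senses transferrin-bound iron upstream of hepcidin. Tfr2, the sensor, was listed on the array under its former name Trfr2. It stood at 5.27, 5.65 and 5.70 in the FSAP-deficient BDL livers, against 6.33, 6.15 and 6.28 in the FSAP-deficient sham livers. In WT it stood at 6.25, 6.04 and 5.86 in the BDL livers, against 6.15, 6.28 and 6.42 in the sham livers. The FSAP-deficient groups did not overlap, and the WT groups did. Tfr2 fell by 0.71 after BDL in FSAP-deficient livers (SE 0.16, interval -1.07 to -0.36, limma adjusted p = 0.00565), a 1.64-fold lower level. In WT livers its change was -0.23 (interval -0.59 to 0.13, adjusted p = 0.308). The difference between the genotypes' BDL changes was -0.48 (SE 0.23, adjusted p = 0.387), so the change was not shown to differ by genotype. The fall in FSAP-deficient livers missed the threshold with quantile normalization at -0.34 and in the authors' own log2 values at -0.34. It also missed against sham liver 3 alone within slide 3, at -0.74. For BDL liver 3 alone, without the arrays with Y-linked signal, it missed at -0.52.

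Of 10 hepatocyte markers, 5 fell in FSAP-deficient livers after BDL and 1 fell in WT livers, beside 22.8% and 17.7% of all tested genes. The log2 of the markers' summed levels ran from 10.9 to 11.3 in FSAP-deficient BDL livers, against 11.4 to 11.6 in FSAP-deficient sham livers. In WT it ran from 10.99 to 11.94 in BDL livers, against 11.3 to 11.6 in sham livers. Here and below, such sums add the levels before log2 is taken, so the brightest probes weigh most. The 5 markers that fell in FSAP-deficient livers were Alb, Apob, Ttr, Tat and Hnf4a. Over all 10 markers the changes in FSAP-deficient livers ran from -1.24 for Ttr to 0.03 for Fgb, with a median of -0.60. In whole liver, fewer cells of a type and less RNA per cell cannot be told apart. The part of hepatocyte content in the change of Tfr2 was not tested.

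Tfrc, transferrin receptor 1, varied widely among livers. Its level was 0.25, -1.56 and -2.02 in the FSAP-deficient BDL livers, against -0.33, -2.91 and -1.54 in the FSAP-deficient sham livers. In WT it was -0.49, -0.99 and -1.05 in the BDL livers, against -2.30, -2.74 and -1.61 in the sham livers. The WT BDL livers were all above the WT sham livers, and the FSAP-deficient groups overlapped. The change after BDL was 0.49 in FSAP-deficient livers (limma adjusted p = 0.603) and 1.37 in WT livers (SE 0.67, interval -0.11 to 2.85, adjusted p = 0.143). The FSAP-deficient change was 1.12 without sham liver 1, -0.17 without sham liver 2 and -0.19 without BDL liver 1. The WT change passed the threshold at the same size without the arrays with Y-linked signal (adjusted p = 0.0333) and with only the WT groups in the model. Of the other Tfrc probes, the one above background on all arrays stood at changes of 0.07 in FSAP-deficient livers and 0.62 in WT livers, without a test of its own.

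Tfrc is also abundant in red cell precursors. The summed erythroid markers ran from 7.04 to 7.58 in FSAP-deficient BDL livers, against 6.18 to 6.95 in FSAP-deficient sham livers, and from 6.79 to 8.03 in WT BDL livers, against 5.91 to 7.30 in WT sham livers. Of 6 markers tested, Slc4a1 rose and Klf1 fell in FSAP-deficient livers, and only Klf1 passed in WT livers, where it fell. The markers that passed are 33.3% and 16.7% of the 6, beside 39.0% and 32.8% of all tested genes. No array had Epb42 well above background. The part of red cell content in the Tfrc levels was not tested.

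Trf, which encodes transferrin, did not pass in any comparison. It lay between 8.96 and 9.43 in FSAP-deficient BDL livers, between 9.33 and 9.51 in FSAP-deficient sham livers, between 8.91 and 9.75 in WT BDL livers and between 9.30 and 9.59 in WT sham livers. Its change after BDL was -0.26 in FSAP-deficient livers (interval -0.73 to 0.21) and -0.11 in WT livers (interval -0.58 to 0.37). The other Trf probe stood at -0.35 in FSAP-deficient livers and -0.04 in WT livers.

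Slc40a1 encodes ferroportin, the iron exporter that hepcidin removes, and Slc39a14 encodes ZIP14, which takes up iron that is not bound to transferrin. Slc40a1 was measured at 3.98, 3.84 and 4.03 in the FSAP-deficient BDL livers, against 3.09, 4.04 and 3.93 in the FSAP-deficient sham livers. It was at 4.59, 3.72 and 4.50 in the WT BDL livers, against 3.94, 3.91 and 4.21 in the WT sham livers. All groups overlapped, and FSAP-deficient sham liver 1 was the lowest of the 12. The change after BDL was 0.26 in FSAP-deficient livers (interval -0.35 to 0.88) and 0.25 in WT livers (interval -0.37 to 0.87), and neither passed the test.

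Slc39a14 stood at 2.45, 3.17 and 2.69 in the FSAP-deficient BDL livers, against 2.91, 2.66 and 3.07 in the FSAP-deficient sham livers. It stood at 3.79, 3.60 and 3.03 in the WT BDL livers, against 3.10, 2.92 and 3.15 in the WT sham livers. Livers 1 and 2 of the WT BDL group were the highest of the 12. The change after BDL was -0.11 in FSAP-deficient livers (adjusted p = 0.735) and 0.42 in WT livers (interval -0.10 to 0.93, adjusted p = 0.199). Between the BDL groups, FSAP-deficient against WT, the change was -0.70 (SE 0.23) at an unadjusted p of 0.0122 and a limma adjusted p of 0.238, with 2 of the 3 FSAP-deficient values below all WT BDL values.

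Bmp6 encodes the ligand that reports iron stores to hepatocytes. It lay between -2.57 and -2.16 in FSAP-deficient BDL livers, between -2.98 and -2.18 in FSAP-deficient sham livers, between -2.56 and -2.06 in WT BDL livers and between -2.44 and -2.06 in WT sham livers. Every group overlapped every other. Its change after BDL was 0.14 in FSAP-deficient livers (interval -0.35 to 0.64) and -0.06 in WT livers (interval -0.56 to 0.43), so a BDL change of more than 0.64 log2 units in either direction lies outside both intervals. The summed markers of sinusoidal endothelium, the cells that release BMP6, ran from 5.17 to 5.56 in FSAP-deficient BDL livers, against 5.56 to 5.76 in FSAP-deficient sham livers, and from 5.48 to 5.60 in WT BDL livers, against 5.64 to 5.86 in WT sham livers. Of the 10 endothelial markers, 40% passed in FSAP-deficient livers and 30% in WT livers, beside 39.0% and 32.8% of all tested genes. Among them, 3 rose and 1 fell in FSAP-deficient livers, and 2 rose and 1 fell in WT livers. Lyve1 had the largest of these changes, at 2.46 in FSAP-deficient livers and 4.11 in WT livers. The part of endothelial content in the Bmp6 levels was not tested.

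Smad7 encodes an inhibitory SMAD that shuts down BMP and TGF-beta signals, and Id1 is a target gene of BMP and SMAD signalling. Smad7 stood at -1.50, -1.22 and -0.95 in the FSAP-deficient BDL livers, against -1.16, -0.73 and -0.40 in the FSAP-deficient sham livers. It stood at -0.82, -1.34 and -0.74 in the WT BDL livers, against -1.13, -1.17 and -0.70 in the WT sham livers. Both pairs of groups overlapped. The change after BDL was -0.46 in FSAP-deficient livers (interval -1.003 to 0.080, adjusted p = 0.162) and 0.03 in WT livers (interval -0.51 to 0.57). With each array set to its median instead, the FSAP-deficient change was -0.66 and passed the threshold (adjusted p = 0.0422), while the median of all tested genes moved to -0.36.

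Id1 was at 1.97, 0.94 and 1.98 in the FSAP-deficient BDL livers, against -0.26, -0.00012 and 1.23 in the FSAP-deficient sham livers. In WT it was at 1.1, 0.48 and 0.55 in the BDL livers, against -0.16, 0.82 and 0.55 in the sham livers. FSAP-deficient BDL livers 1 and 3 were the highest of the 12, and BDL liver 2 lay below sham liver 3, so the groups overlapped. Id1 rose 2.47-fold after BDL in FSAP-deficient livers (log2 change 1.31, SE 0.42, interval 0.37 to 2.25, limma adjusted p = 0.0316), in a comparison where 16.2% of all tested genes rose. In WT livers the change was 0.31 (interval -0.63 to 1.25, adjusted p = 0.62). The difference between the genotypes was 1.00 (SE 0.60, adjusted p = 0.503), so the change was not shown to differ by genotype here either. Against sham liver 3 alone, the highest of the FSAP-deficient sham livers, the value within slide 3 was 0.40. The call in FSAP-deficient livers was lost without the arrays with Y-linked signal, at 1.36 for BDL liver 3 alone. It was also lost with only the FSAP-deficient groups in the model and with no filter on dim probes. It was also lost on leaving out sham liver 1, sham liver 2, BDL liver 1 or BDL liver 3 of the FSAP-deficient mice, the change lying between 1.02 and 1.76 over all single arrays left out.

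**Figure D4:**
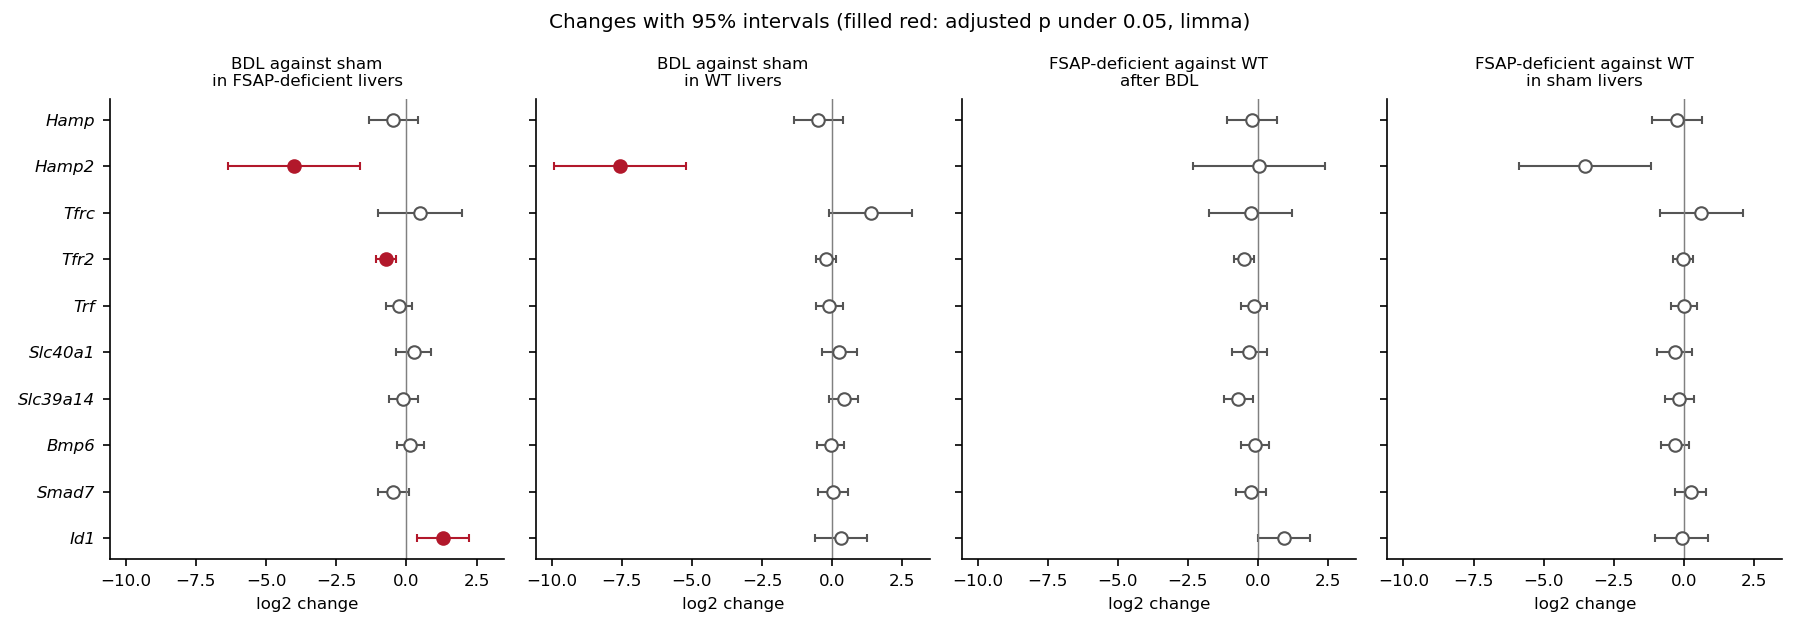
Log2 change of the 10 genes in the 4 comparisons, each point a difference of group means of 3 livers and each line its 95% interval from the limma model. Filled red points passed an adjusted p of 0.05: Hamp2, Tfr2 and Id1 for BDL in FSAP-deficient livers, Hamp2 for BDL in WT livers and none for genotype.

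The genotype comparisons asked whether the loss of FSAP alone, or its loss during cholestasis, altered these genes. None of the 10 members passed the test between FSAP-deficient and WT livers, with 0 of 10 after BDL, 0 of 10 in sham livers and 0 of 10 for the interaction of genotype and BDL, by limma. Of all tested genes, 0.215% changed after BDL (0.123% rose and 0.0922% fell), 0.0154% in sham livers (0.00512% rose and 0.0102% fell) and 0.0102% in the interaction. At an unadjusted limma p under 0.05 there were 2 of 10 members after BDL (Slc39a14 and Tfr2). In sham livers it was 1 of 10 (Hamp2), and for the interaction 1 of 10 (Hamp2). Of the 19531 tested genes, 2515 after BDL, 1540 in sham livers and 2674 for the interaction lay under the same p. After BDL, Tfr2 had a change of -0.51 (SE 0.16, interval -0.87 to -0.15, adjusted p = 0.218), and its FSAP-deficient livers were all below the WT livers. Id1 had a change of 0.92 after BDL (interval -0.02 to 1.86, adjusted p = 0.393), and its groups overlapped. Hamp had a change of -0.22 after BDL (interval -1.10 to 0.66) and of -0.25 in sham livers (interval -1.13 to 0.63). The changes of Tfrc, Trf, Slc40a1, Bmp6 and Smad7 between genotypes lay between -0.32 and -0.11 after BDL and between -0.33 and 0.62 in sham livers. The 0.62 was that of Tfrc, which was -0.01 without FSAP-deficient sham liver 1. After BDL, Tfrc moved from -0.27 to -1.17 without the arrays with Y-linked signal, where BDL liver 3 alone stood for FSAP-deficient livers.

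Hamp2 differed most by size between the sham groups, with all 3 FSAP-deficient sham livers below all 3 WT sham livers. Its change was -3.54 (SE 1.06, interval -5.89 to -1.19), at an unadjusted p of 0.00701 and an adjusted p of 0.325. Without FSAP-deficient sham liver 1, the only one of this group with Y-linked signal, the change was -1.84 (SE 0.25, limma adjusted p = 0.122). With slide as a block it was -1.76, a value linked through the WT BDL livers. That value rests on FSAP-deficient sham liver 2 alone on slide 2 and on WT BDL liver 1 alone on slide 1. After BDL the Hamp2 change between genotypes was 0.03, with an interval of -2.32 to 2.38. That interval carries the spread of the FSAP-deficient sham livers, since all 4 groups share one estimate. With only the BDL groups in the model, the SE of this change was 0.24. The interaction was 3.57 (SE 1.50, limma adjusted p = 0.335). It was 2.07 without the arrays with Y-linked signal, where BDL liver 3 alone stood for the FSAP-deficient BDL group. Genotype and slide cannot be told apart within a surgery, since no slide held both genotypes after the same operation.

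The other genes of iron handling were read from 6 lists of 78 genes, of which 76 were tested, Erfe and Cybrd1 being too dim. After BDL, 13 rose and 14 fell in FSAP-deficient livers, and 18 rose and 13 fell in WT livers, which are 35.5% and 40.8% of those tested beside 39.0% and 32.8% of all tested genes. With the array median as the scale the split was 11 and 18 in FSAP-deficient livers and 14 and 19 in WT livers, and with quantile normalization 20 and 11, and 20 and 10. Within slides 7 rose and 5 fell in FSAP-deficient livers, and 12 rose and 4 fell in WT livers. Without the arrays with Y-linked signal the counts were 14 and 15, and 19 and 17. None of the 76 passed between the genotypes or in the interaction.

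**Figure D5:**
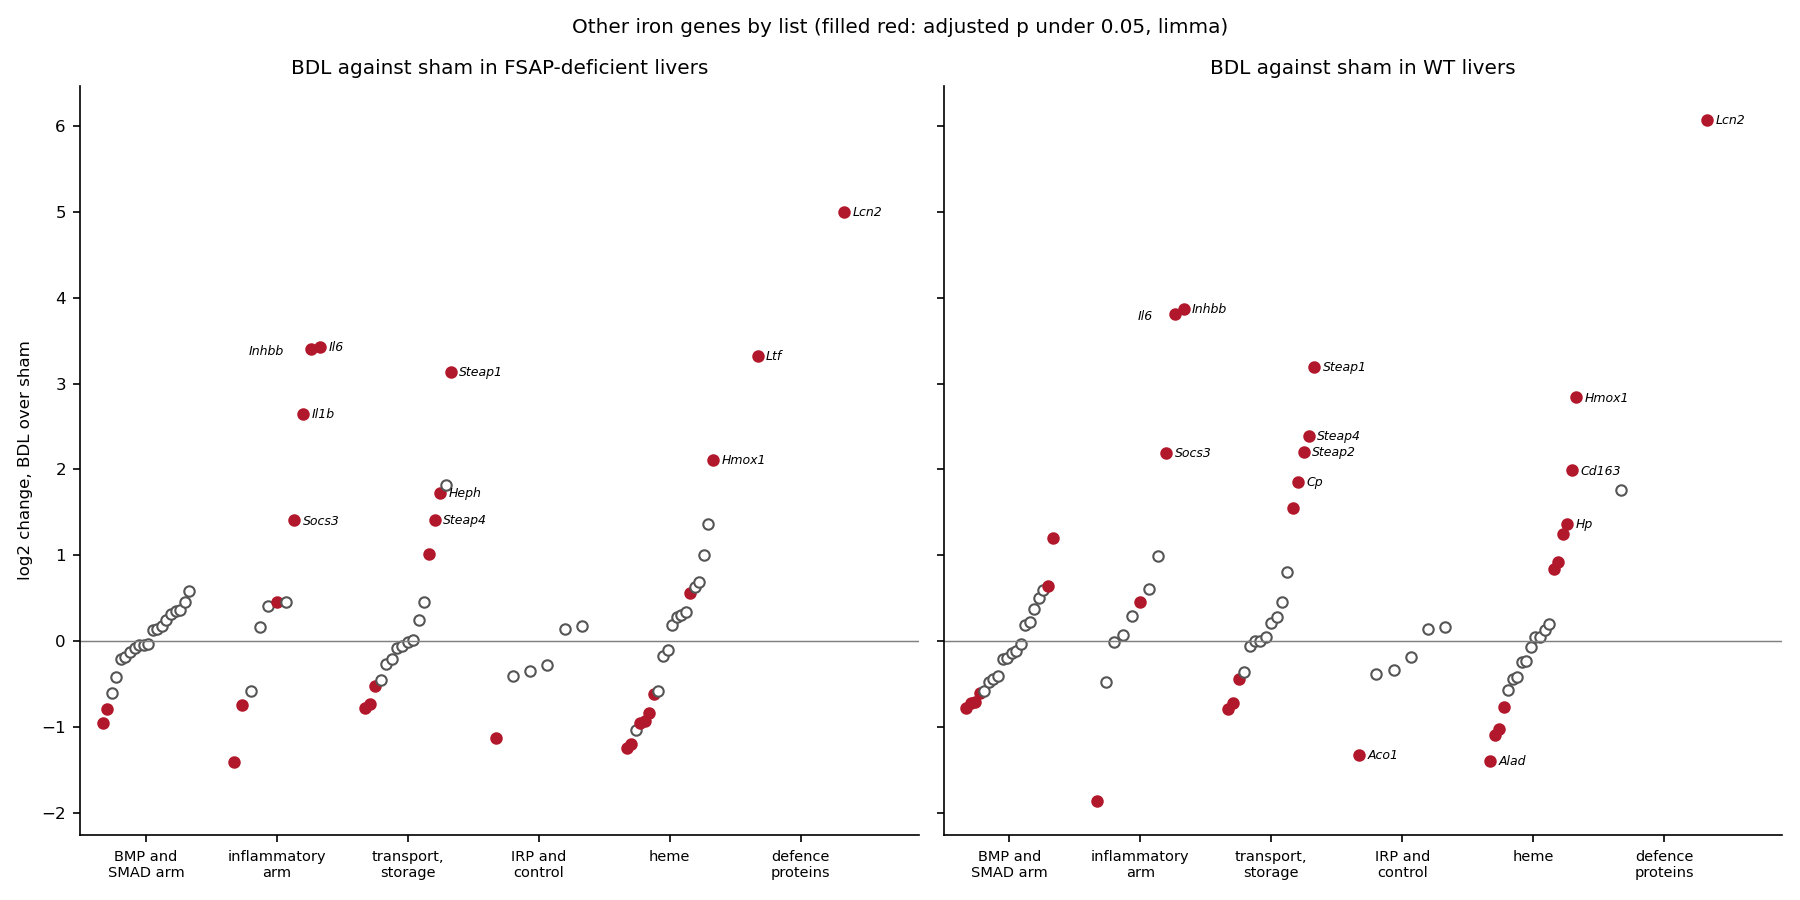
Log2 change after BDL of 76 iron genes in 6 lists, ordered by size within each list, in FSAP-deficient livers on the left and WT livers on the right. Filled red points passed an adjusted p of 0.05 and the larger named changes are labelled; Lcn2 is the highest in both panels, at 5.0 in FSAP-deficient livers and 6.07 in WT livers.

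The inflammatory arm of hepcidin control had 5 genes that rose and 2 that fell of 11 in FSAP-deficient livers. In WT livers 4 rose and 1 fell. The share that passed was 63.6% in FSAP-deficient livers and 45.5% in WT livers, beside 39.0% and 32.8% of all tested genes. The arm's median log2 change was 0.46 in FSAP-deficient livers, beside -0.16 over all tested genes, and 0.46 in WT livers, beside -0.03. Inhbb, the activin B subunit, which can induce hepcidin in mouse hepatocytes, rose by 3.41 in FSAP-deficient livers (SE 0.31, limma adjusted p = 3.11e-05) and by 3.87 in WT livers (adjusted p = 1.63e-05). Il6, the cytokine that acts on hepcidin through STAT3, was not well above background in any sham liver and was at least 3.17-fold higher after BDL in FSAP-deficient livers (adjusted p = 0.000384) and at least 3.97-fold higher in WT livers (adjusted p = 0.00025), set against the lowest signal well above background. Socs3, a feedback inhibitor that STAT3 induces, rose by 1.41 in FSAP-deficient livers and by 2.19 in WT livers. Il1b, an inflammatory cytokine, rose by 2.65 in FSAP-deficient livers and had a change of 0.99 in WT livers (limma adjusted p = 0.0877), which passed without WT BDL liver 1, at 1.49. Stat3 itself did not pass, at 0.41 in FSAP-deficient livers and 0.61 in WT livers, but did in both with quantile normalization, and in WT livers without WT sham liver 2 or WT BDL liver 3, at up to 0.83. The Socs3 rise in FSAP-deficient livers was not called within slide 3 or without FSAP-deficient sham liver 3, BDL liver 2 or BDL liver 3, and ranged from 1.07 to 1.86 over single arrays left out. Of 12 macrophage markers, 12 rose in FSAP-deficient livers and 10 rose in WT livers, beside 16.2% and 15.1% of all tested genes. The part of macrophage content in the changes of the inflammatory arm was not tested.

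In the BMP and SMAD arm, 0 genes rose and 2 fell of 20 in FSAP-deficient livers, and 2 rose and 4 fell in WT livers, which are 10% and 30% of the list beside 39.0% and 32.8% of all tested genes. The median change was -0.04 in FSAP-deficient livers, beside -0.16 over all tested genes, and -0.17 in WT livers, beside -0.03. With 1 array left out, 0 to 3 rose and 1 to 4 fell in WT livers. Tmprss6, a hepatocyte protease that cuts hemojuvelin and so lowers hepcidin, lay between 4.96 and 5.95 in FSAP-deficient BDL livers, against 6.26 to 6.66 in FSAP-deficient sham livers, and between 5.27 and 5.84 in WT BDL livers, against 6.32 to 6.39 in WT sham livers. It fell by 0.95 in FSAP-deficient livers (SE 0.25, limma adjusted p = 0.0116) and by 0.71 in WT livers (adjusted p = 0.0492). The part of hepatocyte content in the Tmprss6 changes was not tested. The WT call was lost on leaving out any 1 of 10 arrays, with changes between -0.81 and -0.52, and both calls were lost with quantile normalization and within slides. Acvr2a, an activin and BMP receptor, fell by 0.79 in FSAP-deficient livers and by 0.72 in WT livers, though neither call held within slides, nor the first without the arrays with Y-linked signal. Atoh8, a BMP target, rose by 1.20 in WT livers, a call lost without WT sham liver 3 or WT BDL liver 1, with changes between 0.82 and 1.45 over single arrays left out, and also with median scaling, with no filter on dim probes and with only the WT groups in the model. Id2, another BMP target, fell by 0.78 in WT livers, a call lost without any 1 of 8 arrays, with changes between -0.997 and -0.670. That call was also lost with quantile normalization, in the authors' log2 values, with no filter on dim probes and within slide 1. Hjv, hemojuvelin, the BMP co-receptor, rose by 0.64 in WT livers (adjusted p = 0.0225) and changed by 0.13 in FSAP-deficient livers without passing, and the WT call was lost on leaving out WT sham liver 1 or 3 or WT BDL liver 1 or 2. Hfe, the haemochromatosis protein, stood at changes of -0.05 in FSAP-deficient livers and 0.23 in WT livers.

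Among the genes of iron transport, storage and reduction, 4 rose and 3 fell of 17 in FSAP-deficient livers. In WT livers 5 rose and 3 fell. These are 41.2% and 47.1% of the list, beside 39.0% and 32.8% of all tested genes. Cp, ceruloplasmin, the plasma ferroxidase that works with ferroportin, rose by 1.02 in FSAP-deficient livers (SE 0.23, limma adjusted p = 0.00519) and by 1.85 in WT livers (adjusted p = 0.000191), the first of these calls being lost within slide 3. Steap4, a metalloreductase, rose by 1.41 in FSAP-deficient livers and by 2.39 in WT livers. Steap1, a related protein, was at least 7.19-fold higher in FSAP-deficient livers and at least 5.19-fold higher in WT livers, since it was not well above background in the sham livers; neither call held within slides. Heph, hephaestin, a ferroxidase of the gut and other tissues, rose by 1.73 in FSAP-deficient livers and had a change of 0.81 in WT livers (limma adjusted p = 0.131), which passed without WT BDL liver 1, at 1.28. Steap2 rose by 2.20 in WT livers, a call lost without any 1 of the 6 WT arrays, and had a change of 1.82 in FSAP-deficient livers, which ranged from 1.06 to 2.53 over single arrays left out and passed without BDL liver 1. The ferritin chains that store iron did not pass, with Fth1 at 0.01 in FSAP-deficient livers and 0.00 in WT livers and Ftl1 at -0.45 and -0.35. With quantile normalization the Fth1 changes did pass.

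Over all tested genes, 22.8% fell in FSAP-deficient livers and 17.7% fell in WT livers. Of the iron regulatory proteins and their control, 1 of 6 fell in each genotype and 0 rose. It was Aco1, iron regulatory protein 1, which binds iron-responsive elements of Tfrc, ferritin and ferroportin messages. Aco1 fell by 1.12 in FSAP-deficient livers (SE 0.22, limma adjusted p = 0.00248) and by 1.33 in WT livers (adjusted p = 0.00118), and the WT call was lost within slide 1.

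In heme synthesis, breakdown and scavenging, 2 genes rose and 6 fell of 20 in FSAP-deficient livers. In WT livers 6 rose and 4 fell. These are 40% and 50% of the list, beside 39.0% and 32.8% of all tested genes. In FSAP-deficient livers the split was 0 and 3 within slide 3, 4 and 6 with quantile normalization and 1 and 8 with median scaling. Hmox1, heme oxygenase 1, which frees iron from heme, rose by 2.11 in FSAP-deficient livers (SE 0.45, limma adjusted p = 0.00408). In WT livers it rose by 2.84 (adjusted p = 0.000924). The WT sham levels were spread, at -0.92, 0.95 and 1.34, and the WT change ranged from 2.15 to 3.28 over single arrays left out. The FSAP-deficient call was lost within slide 3 and without the arrays with Y-linked signal. Hp, haptoglobin, which binds free haemoglobin, and Hpx, hemopexin, which binds free heme, rose in WT livers by 1.36 and 1.24 and stood at changes of 0.30 and 0.63 in FSAP-deficient livers, where both passed with quantile normalization. Cd163, the macrophage receptor for haptoglobin bound to haemoglobin, was well above background on 1 of 3 WT sham arrays and 0 of 3 FSAP-deficient sham arrays. After BDL it was well above background on 2 of 3 FSAP-deficient arrays and 3 of 3 WT arrays. Its change in FSAP-deficient livers did not pass (limma adjusted p = 0.0564) and ranged from -0.01 to 1.85 over the alternatives. In WT livers Cd163 passed (limma adjusted p = 0.0128). Among the enzymes that build heme, Uros fell by 1.20 in FSAP-deficient livers and had a change of -0.42 in WT livers, and Alad fell by 1.40 in WT livers, lost without 5 of the 6 WT arrays in turn, and had a change of -1.03 in FSAP-deficient livers, which passed without BDL liver 1, at -1.42. Slc46a1, a folate and heme carrier, fell by 1.24 in FSAP-deficient livers and by 1.09 in WT livers, where the call was lost within slide 1.

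Both iron-binding defence proteins rose in FSAP-deficient livers and 1 rose in WT livers, beside 16.2% and 15.1% of all tested genes that rose. Lcn2, lipocalin 2, which captures bacterial siderophores, lay between 6.50 and 8.59 in FSAP-deficient BDL livers, against 1.04 to 3.80 in FSAP-deficient sham livers, and between 7.98 and 9.37 in WT BDL livers, against 2.31 to 3.42 in WT sham livers. No BDL liver overlapped a sham liver. Lcn2 rose by 5.0 in FSAP-deficient livers (SE 0.71, limma adjusted p = 0.000388) and by 6.07 in WT livers (adjusted p = 0.000146). Ltf, lactoferrin, a neutrophil granule protein, rose by 3.32 in FSAP-deficient livers (limma adjusted p = 0.0223). That call was lost within slide 3 and without FSAP-deficient sham liver 1, at 2.17, or BDL liver 1. In WT livers its change was 1.76. Ltf was well above background on 2 of 3 sham arrays in each genotype, so the size of both changes rests partly on a dim level.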

How the data were processed

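Total RNA from 12 mouse livers, 3 mice per group, was labelled with Cy3 and hybridised to one-colour Agilent arrays. The deposited scanner files give spot intensity, background-corrected by Agilent Feature Extraction 10.5.1.1 (protocol GE1_105_Jan09), per the file headers. The authors also deposited log2 values for each array, which were used as an alternative. From the deposited intensity, log2 of the processed signal was taken minus each array's 75th percentile, without control and outlier-marked spots. Spots of a probe were averaged and each gene took its brightest probe. Of 33063 probes with a RefSeq accession, 26412 were named through it, and the others kept the file's name. A gene was tested if at least 3 of 12 arrays had it well above background, which left 19531 of 31870.

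limma 3.58.1 (R 4.3.3) fitted 4 group means over all arrays, with 8 residual degrees of freedom, two-sided tests and Benjamini-Hochberg adjustment over all tested genes at 0.05. It was tested on simulated data. The p-values rest on the spread between arrays within groups, pooled over all 4 groups, and the number of arrays limits their precision. Slide was not in the main model, so in FSAP-deficient sham and WT BDL livers this spread includes differences between slides. In both FSAP-deficient groups it also includes arrays with and without Y-linked signal. Within-slide values come from the fit with slide as a block. The text names all 10 members, a few list genes fixed by name, and the 3 largest passing changes of each list in each BDL comparison. The members and lists were chosen with earlier results of these data known. Same-numbered replicates correlated between -0.20 and 0.19 in their deviations and were not treated as pairs.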

Additional observations from a re-analysis of the deposited data

How the results depend on the processing

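Over 50 results for the 10 genes (10 genes in 5 comparisons) and 24 alternatives, 1083 of 1190 values kept their direction and their side of the threshold, 13 lost the call, 3 gained it, and none of the called changes reversed. The other 91 were sign changes of values that passed in neither setting, in 30 of the results, with sizes up to 0.98 after the change. With only the groups compared in the model, 1 member was called for BDL in FSAP-deficient livers and 2 in WT livers. Without the arrays with Y-linked signal the WT count was 2. The FSAP-deficient count there is not given, since BDL liver 3 alone remains. With slide as a fixed block, 1 member was called for BDL in FSAP-deficient livers. With any 1 array left out, the count lay between 2 and 3 in FSAP-deficient livers and stayed at 1 in WT livers, and it was 0 for both genotype comparisons and the interaction. The cause of these changes was not tested. Taking the replicate number as a block, which the labels do not describe as a pairing, left the members called at 3 in FSAP-deficient livers and 1 in WT livers, and at 0 in the other comparisons. Under that replicate block the adjusted p of Hamp2 after BDL was 0.018 in FSAP-deficient livers and 0.00118 in WT livers. Over all tested genes, the number called for BDL was 7624 in FSAP-deficient livers and ranged from 4190 to 9077 over the alternatives, and 6415 in WT livers, with a range of 3304 to 7639. The number called between genotypes was 42 after BDL (2 to 135), 3 in sham livers (1 to 3) and 2 for the interaction (0 to 264). Dim probes limit what can be measured: levels of genes not well above background have no order.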
